A study of Mus musculus with 6 samples.

Results

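The GIMAP family (GTPases of immunity-associated proteins) was examined on 6 Affymetrix arrays of a mouse ILC2 line, 3 labelled Myc knockout and 3 labelled control. Its members were chosen by gene symbol, with earlier results of these data known: Gimap1, Gimap3, Gimap4, Gimap5, Gimap6, Gimap7, Gimap8 and Gimap9. Each was matched through its gene number to 1 probe set, which gave 8 members among 23185 named probe sets. ILC2s are lymphocytes that lack rearranged antigen receptors and secrete type 2 cytokines. The line came from C57BL/6J mice and was grown with IL-2 and IL-33 (10 ng/ml). In the group labelled Myc knockout the cells received a lentiviral LentiV2CRISPRGFP construct with a guide RNA against Myc, and in the control group the same construct with a non-target guide. GFP-positive cells of either group were sorted 6 days after transduction and their total RNA was hybridised. The sorted cells were a transduced population, and the labels do not say what share of them carried an edited Myc gene. They also do not state whether replicates were separate cultures, so the p-values reflect the variation among these 6 arrays alone, which could be technical.

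GIMAP proteins are GTPases with a shared AIG1 GTP-binding domain, made mainly in lymphocytes and encoded by a tight cluster of genes. Many are anchored to the membranes of different organelles, and several are needed for the survival of resting lymphocytes: loss of Gimap5 in mice and rats, or of Gimap1 in mice, depletes peripheral lymphocytes. MYC is a transcription factor that drives growth and division of activated lymphocytes. The comparison shows how transcripts of a family tied to lymphocyte survival stood after delivery of a Myc guide.

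All values are log2 RMA values, in which the arrays were brought to a common distribution of brightness, and differences are knockout-labelled arrays minus control, ± SE. Array medians lay between 3.27 and 3.34 and lower quartiles between 2.04 and 2.13. Upper quartiles were 5.69, 5.74 and 5.73 in the knockout-labelled arrays, against 5.78, 5.76 and 5.76 in controls, without overlap. Myc itself was not lower in the knockout-labelled arrays, at 9.55, 9.79 and 9.73 against 9.27, 9.33 and 9.39 in controls, so every direction below rests on the labels. Of 13 measured ILC2 markers, 11 averaged above the array medians. Gata3, the lineage-defining transcription factor gene, averaged 9.32 in the knockout-labelled arrays and 9.57 in controls, and Il7r, the IL-7 receptor gene, 9.19 and 9.42. Marker differences had both signs, 7 positive and 6 negative, with p under 0.05 before adjustment for 4 of either sign, and 1 passed limma's adjusted test: Il5, a type 2 cytokine gene, averaged 10.01 in the knockout-labelled arrays and 9.53 in controls (difference 0.49 ± 0.061, limma's adjusted p = 0.0386). With any 1 array left out, the adjusted p of Il5 in limma was 0.0887 to 0.174, under the replicate block it was 0.173 and under median centring 0.0522. Il13, another such cytokine gene, averaged 11.29 and 11.05, and Icos, a costimulatory receptor gene, 9.69 and 9.53. The marker Il17rb, an IL-25 receptor subunit gene, was near the lower quartiles at 2.12 and 2.09. Thy1, a surface marker gene, stood near the array medians at 3.32 in the knockout-labelled arrays and 3.21 in controls. The groups did not overlap for 4 higher markers, Il13 and Icos among them, and for 3 lower ones, Gata3 and Il7r among them. Of all 23185 genes, 2145 were apart upward in this way and 2457 downward. Before adjustment, a p under 0.05 came with a positive difference for 6.97% of all genes and with a negative one for 7.91%.

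All 8 GIMAP genes were measured well above the array medians, between 5.36 and 7.09 on every array, and no member passed the test in either direction. By mean level they lay at or above the 72.5th percentile of named probe sets. In limma's fit over all genes with Benjamini-Hochberg adjustment, 0 of 8 members were higher and 0 of 8 lower at an adjusted p under 0.05, against 0.254% and 0.198% of all genes. At an unadjusted p under 0.05, 0 members were higher and 1 lower, against 6.97% and 7.91% of all genes. Differences ran from −0.32 for Gimap8 to 0.25 for Gimap3, and no 95% confidence interval reached beyond −0.59 or 0.51. A change of 1 on the log2 scale thus lay outside the interval of each of the 8 genes. In bulk RNA, fewer cells carrying a transcript and less of it per cell cannot be told apart.

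The differences pointed both ways. Gimap1, Gimap4, Gimap7, Gimap8 and Gimap9 had negative differences and Gimap3, Gimap5 and Gimap6 positive ones, so 5 of 8 members were negative, against 47.8% of all genes and 58% of genes at or above the median brightness. Under median centring the sign of Gimap6 alone changed, and under cyclic loess no member changed sign. The median difference over the members was −0.10, beside 0.0077 over all genes and −0.030 over the brighter genes. The median member level of an array was 6.39, 6.43 and 6.47 in the knockout-labelled arrays, against 6.50, 6.41 and 6.38 in controls, and the groups overlapped. The log2 of the members' summed linear levels, to which brighter members add more, was 9.43, 9.42 and 9.42 in the knockout-labelled arrays, against 9.47, 9.48 and 9.45 in controls, without overlap. The upper quartiles of the arrays were apart in the same direction, at 5.69 to 5.74 against 5.76 to 5.78. Their part in the separation of the sums was not tested. For 3 members, Gimap7, Gimap8 and Gimap9, all values of the knockout-labelled arrays lay below all control values. Such separation downward held for 10.6% of all genes and 18.6% of the brighter genes.

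**Figure D1:**
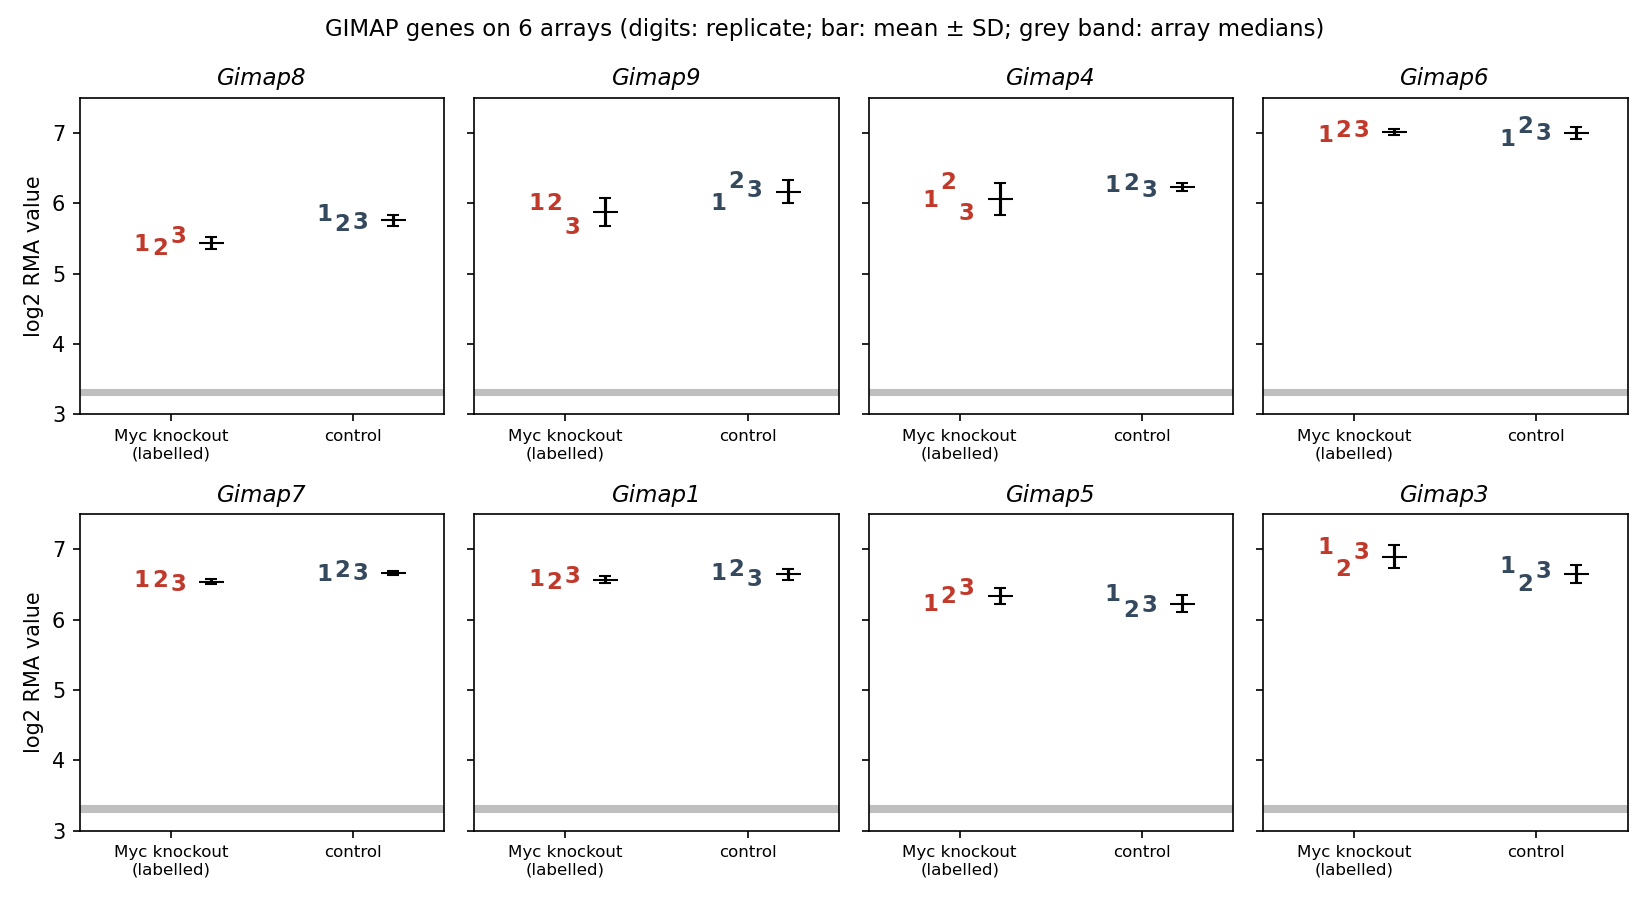
Log2 RMA value of each GIMAP gene, 1 panel per gene in chromosomal order, with the knockout-labelled arrays left of the controls; digits are replicates, bars are mean ± SD (n = 3) and the grey band spans the array medians of 3.27 to 3.34. All points lie between 5.36 and 7.09, and the groups are apart without overlap for Gimap7, Gimap8 and Gimap9.

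The RefSeq gene table for GRCm38.p6 places the genes side by side on chromosome 6 in the order Gimap8, Gimap9, Gimap4, Gimap6, Gimap7, Gimap1, Gimap5 and Gimap3, with 2 other annotated genes among them, of which 0 had a named probe set. RefSeq promoter windows, from 250 bases before to 50 bases after a transcription start, were found for all 8 members, 9 windows in all because Gimap8 has 2. Windows are shown for the 3 genes whose groups did not overlap and for Gimap3, the member with the largest positive difference. Of the 2 Gimap8 windows, the one shown holds the match capitalised in it; in the other, CANNTG alone of the motifs below was found. Capitals mark matches to the STAT-, ETS-, RUNX- and FOXO-type motifs spelled out after the sequences, while CANNTG matches are left in lower case.
Gimap8, + strand, chr6:48647111-48647410: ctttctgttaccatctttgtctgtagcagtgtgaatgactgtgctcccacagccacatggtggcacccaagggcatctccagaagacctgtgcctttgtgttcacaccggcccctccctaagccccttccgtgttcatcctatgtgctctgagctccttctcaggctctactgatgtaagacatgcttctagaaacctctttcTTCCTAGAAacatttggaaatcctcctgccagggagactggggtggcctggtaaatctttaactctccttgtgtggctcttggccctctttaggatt
Gimap9, + strand, chr6:48675885-48676184: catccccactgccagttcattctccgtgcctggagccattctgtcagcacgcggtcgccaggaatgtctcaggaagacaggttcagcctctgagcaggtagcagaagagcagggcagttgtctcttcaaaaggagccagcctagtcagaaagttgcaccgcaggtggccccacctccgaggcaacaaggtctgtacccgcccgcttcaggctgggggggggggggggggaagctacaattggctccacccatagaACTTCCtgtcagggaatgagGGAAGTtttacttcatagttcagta
Gimap7, + strand, chr6:48718371-48718670: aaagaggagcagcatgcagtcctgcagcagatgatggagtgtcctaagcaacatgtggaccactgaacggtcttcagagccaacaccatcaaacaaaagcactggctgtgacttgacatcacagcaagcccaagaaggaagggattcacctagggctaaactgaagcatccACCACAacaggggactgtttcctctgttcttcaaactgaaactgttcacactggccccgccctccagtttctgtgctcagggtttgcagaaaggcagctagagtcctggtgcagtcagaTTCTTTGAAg
Gimap3, - strand, chr6:48770802-48771101: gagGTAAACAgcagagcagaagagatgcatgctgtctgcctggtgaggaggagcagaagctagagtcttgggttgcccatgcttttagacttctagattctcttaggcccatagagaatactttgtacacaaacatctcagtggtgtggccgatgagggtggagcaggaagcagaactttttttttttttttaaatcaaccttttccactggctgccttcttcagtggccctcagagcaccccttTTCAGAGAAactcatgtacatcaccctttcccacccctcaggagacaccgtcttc

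The motifs were searched on both strands in all 32851 RefSeq promoter windows of that length. The palindrome CACGTG, the E-box that MYC binds with its partner MAX, was in 0 of the 9 GIMAP windows and in 7.15% of all windows. Its looser form CANNTG, which includes CACGTG, was in 7 of 9 and in 72.3% of all windows. In the printed windows it lies, in lower case, beginning 197 and 37 bases before the start in Gimap8, 136, 90 and 15 before it in Gimap9, and 223 and 199 before it in Gimap7, with no match in Gimap3. TTCNNNGAA, a STAT-type motif, was in 4 of 9 GIMAP windows and 8.30% of all windows. It is capitalised above in Gimap8, where it begins 47 bases before the start, in Gimap7, where it begins 40 bases after it, and in Gimap3, where it begins 5 bases before it, and it also lies in Gimap6. GGAAGT, an ETS-type motif, was in 4 of 9 GIMAP windows, with 2 matches capitalised in Gimap9, against 23.8% of all windows. TGTGGT, a RUNX-type motif, was in 3 of 9, with 1 match capitalised in Gimap7, against 16.8%, and GTAAACA, a FOXO-type motif, in 1 of 9, Gimap3, against 3.65%. The GATA-type motif AGATAA was in 0 of 9 and in 11.2% of all windows. Other than CACGTG within CANNTG, no motif contains another, and in Gimap4 a RUNX-type match overlaps one to CANNTG. A match describes letters in a window and was not tied to binding.

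Gimap8, which encodes an unusually large member with several GTP-binding domains, had the largest difference. Its log2 values were 5.42, 5.36 and 5.53 in the knockout-labelled arrays, against 5.84, 5.70 and 5.73 in controls. The groups did not overlap, and the highest array labelled Myc knockout was below the lowest control. Means were 5.44 ± 0.086 and 5.76 ± 0.074 (SD, n = 3 each), a difference of −0.32 ± 0.071, or a level 1.25-fold lower (95% confidence interval 1.11 to 1.41). In limma the unadjusted p = 0.00324 became an adjusted p of 0.127, so Gimap8 did not pass over all genes. It passed with an adjusted p of 0.0480 when limma was fitted on the 11593 genes at or above the median brightness alone, where 2.98% of genes were lower and 1.76% higher at that threshold. By exact permutation of the 6 arrays (two-sided) p was 0.1, the lowest value this design can reach.

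Its chromosomal neighbour Gimap9 had a difference of −0.29 ± 0.12. Log2 values were 5.99, 6.00 and 5.66 in the knockout-labelled arrays, against 6.00, 6.32 and 6.19 in controls. The separation of the groups was narrow, since replicate 2 of the knockout-labelled arrays stood at 5.9999 and control replicate 1 at 6.0006. Means were 5.88 ± 0.20 and 6.17 ± 0.16 (SD, n = 3 each), and limma's adjusted p was 0.352. The confidence interval of the fold lower level ran from 0.991 to 1.501. Leaving out replicate 3 of the knockout-labelled arrays, the lowest of the 6, gave a difference of −0.17.

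Gimap7, whose human counterpart is an active GTPase that works as a dimer, had the tightest replicates. Log2 values were 6.56, 6.56 and 6.50 in the knockout-labelled arrays, against 6.65, 6.70 and 6.65 in controls. The groups were apart by more than their small spreads, with means of 6.54 ± 0.033 and 6.67 ± 0.031 (SD, n = 3 each), but the difference was only −0.13 ± 0.054. It did not pass (limma's adjusted p = 0.347), and the level was 1.09-fold lower with an interval of 0.997 to 1.19.

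Gimap3 and Gimap5 encode closely related proteins. Mouse Gimap3 influences the inheritance of mitochondrial DNA in blood cells, and Gimap5 lies on lysosomal membranes and is required for lymphocyte survival. For Gimap3, log2 values were 7.02, 6.72 and 6.95 in the knockout-labelled arrays, against 6.76, 6.50 and 6.69 in controls. The groups overlapped, since replicate 2 of the knockout-labelled arrays lay below control replicate 1. The difference was 0.25 ± 0.11, a 1.19-fold higher level with an interval of 0.996 to 1.42 (limma's adjusted p = 0.344).

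For Gimap5, log2 values were 6.22, 6.33 and 6.44 in the knockout-labelled arrays, against 6.36, 6.13 and 6.20 in controls. The groups overlapped and the difference of 0.10 ± 0.089 was close to its SE (limma's adjusted p = 0.617, fold 1.07, interval 0.927 to 1.25). Single arrays moved it by more than 1.5 times: it was 0.16 without replicate 1 and 0.047 without replicate 3 of the knockout-labelled arrays, and 0.17 without replicate 1 and 0.054 without replicate 2 of the controls. The genes are similar in sequence and the probe set definition is not given in the sources used here, so the values of this pair are uncertain to the extent that their probe sets respond to each other's transcripts. Gimap5 is also listed in RefSeq as a synonym of Gimap3, and the rows were told apart by gene number.

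The opposite extremes of the family, Gimap8 and Gimap3, can be set against each other on each array. The log2 value of Gimap8 minus that of Gimap3 was −1.61, −1.36 and −1.42 in the knockout-labelled arrays, against −0.91, −0.80 and −0.96 in controls. The pair was picked as the extremes, so the shift of −0.57 between the group means is given as a description without a test.

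The other members differed little. Gimap1, needed in mice for mature lymphocytes, was at 6.57, 6.52 and 6.61 in the knockout-labelled arrays, against 6.66, 6.72 and 6.57 in controls. The groups overlapped, with a difference of −0.078 ± 0.064 (limma's adjusted p = 0.605) that was −0.041 without control replicate 2 and −0.12 without control replicate 3. Gimap4, whose loss in mice delays the death of T cells, was at 6.04, 6.30 and 5.85 in the knockout-labelled arrays, against 6.25, 6.28 and 6.18 in controls. Here the spread of 0.22 (SD) among the knockout-labelled arrays was the largest of any member in either group, and the difference of −0.17 ± 0.11 did not pass (limma's adjusted p = 0.519). Without replicate 2 of those arrays, the highest of all 6 for this gene, the difference was −0.29 and without replicate 3 it was −0.068, neither past the threshold.

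Gimap6, whose human product binds the ATG8 protein GABARAPL2 in autophagy, gave the smallest difference. Its log2 values were 6.97, 7.04 and 7.03 in the knockout-labelled arrays, against 6.91, 7.09 and 6.99 in controls. The control values enclosed all those of the knockout-labelled arrays, and the difference was 0.018 ± 0.066 (limma's adjusted p = 0.919). The 95% interval of the fold, 0.907 to 1.13, bounds how far this transcript could have moved.

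**Figure D2:**
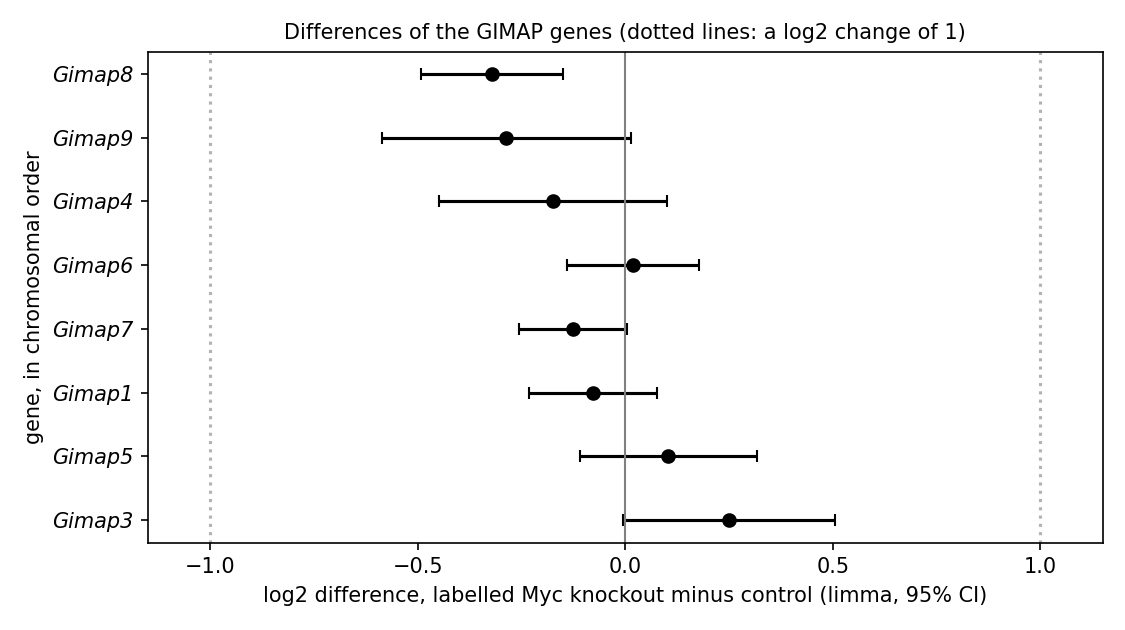
Log2 difference of each GIMAP gene, knockout-labelled arrays minus control, with limma's 95% confidence interval, in chromosomal order from top to bottom; dotted lines mark a log2 change of 1. The interval of Gimap8, at −0.32, is the only one that excludes 0, and no interval reaches a dotted line.

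Within a group, no array was high or low for the whole family. Among controls, replicate 2 was the highest for 5 members and the lowest for the other 3, which were Gimap3, Gimap5 and Gimap8. Among the knockout-labelled arrays, replicate 1 was highest for 2 members, and replicates 2 and 3 for 3 members each. In replicate 3 of the knockout-labelled arrays, the neighbours Gimap9 and Gimap4 lay 0.23 and 0.21 below their group means, while Gimap8, Gimap5 and Gimap3 were above theirs. Likeness between members was measured as the root mean square difference of their 6 values after each gene was centred on its mean. By that measure the nearest pair was Gimap7 and Gimap1 (0.060), which adjoin on the chromosome, and the farthest was Gimap9 and Gimap3 (0.36). Other members next to each other in order ran from 0.087 for Gimap6 and Gimap7 to 0.21 for Gimap8 and Gimap9. Values were not scaled, so genes that vary little lie near each other by this measure. The range over the 6 arrays was 0.20 for Gimap7 and for Gimap1, against 0.66 for Gimap9 and 0.53 for Gimap3.

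**Figure D3:**
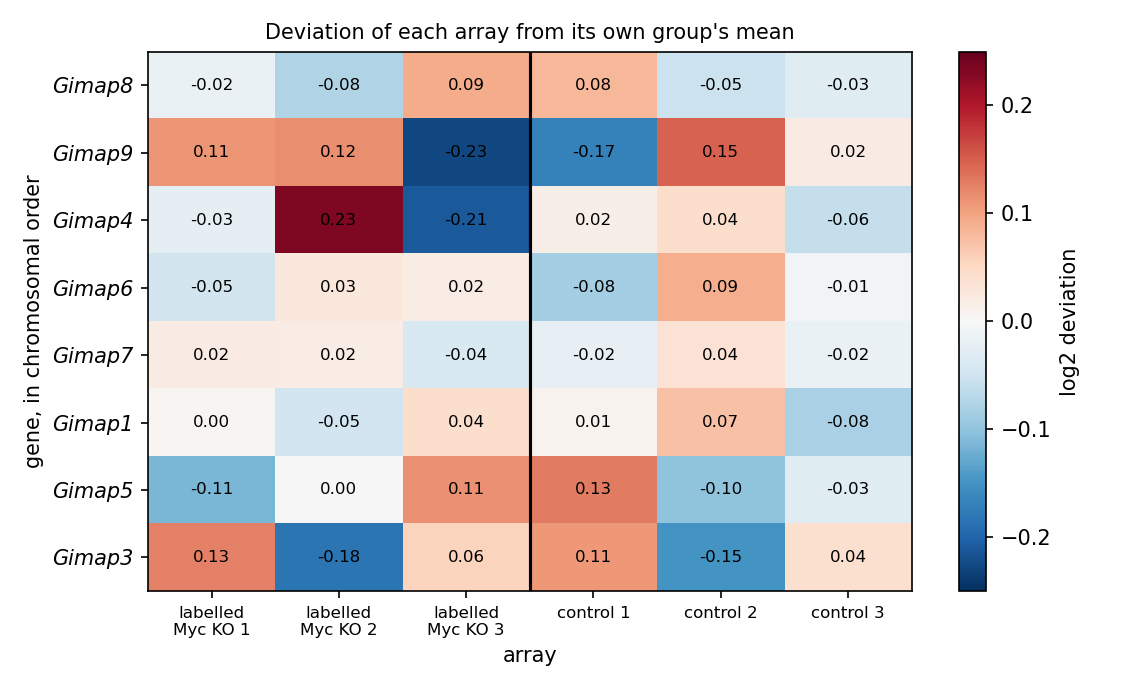
Deviation of each array from its own group's mean, in log2 units, for each GIMAP gene (rows in chromosomal order) and each array (columns, labelled Myc knockout left of control). Control replicate 2 is above its group's mean for 5 genes and below it for Gimap8, Gimap5 and Gimap3, and no column has 1 sign for all rows.

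By the same measure, the named genes nearest to Gimap6 among the brighter genes were Prkar2b, a protein kinase A regulatory subunit gene (0.011), Psmd13, a proteasome subunit gene (0.015), and Tamm41, a mitochondrial lipid enzyme gene (0.015). Nearest to Gimap8 were Pik3r6, a regulatory subunit gene of phosphoinositide 3-kinase gamma (0.018), Stxbp4 (0.025) and Gm8995 (0.028). Their own differences were −0.34, −0.31 and −0.30, none of them past the threshold over all genes. These are descriptions over 6 arrays that share the group difference.

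The genes with a probe set that flank the cluster were examined as well. Before Gimap8 lie AI854703, a transcribed pseudogene, and Zfp775, a zinc finger gene. Zfp775 was at 4.28, 4.15 and 4.36 in the knockout-labelled arrays, against 4.63, 4.58 and 4.40 in controls, without overlap, with a difference of −0.27 ± 0.088 that did not pass (limma's adjusted p = 0.241). AI854703 differed by 0.023 ± 0.14. After Gimap3 lie Tmem176b and Tmem176a, paired membrane protein genes expressed in some myeloid cells and ILC3s, whose means of 2.26 and 3.05 in the knockout-labelled arrays and 2.07 and 2.96 in controls lay below the array medians.

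Genes with known ties to GIMAP proteins or to lymphocyte survival and quiescence, and other immune GTPases, were followed in 7 lists with 70 measured members. Counts at an unadjusted p under 0.05 are given beside limma's adjusted calls. At that unadjusted p in limma, 6.97% of all genes were higher and 7.91% lower. Among the brighter genes 7.76% were higher and 13.8% lower. Differences were negative for 47.8% of all genes and 58% of the brighter genes. The ATG8 family, to which the partners of GIMAP6 belong, had 0 of 5 members past the threshold, 0 higher and 2 lower at an unadjusted p, and 5 negative differences. Gabarapl2 stood at 4.80 in the knockout-labelled arrays and 4.86 in controls, and Map1lc3a differed by −0.26 ± 0.069 (limma's adjusted p = 0.177). Gimap5 has been linked in mouse lymphocytes to the kinase GSK3β and to FOXO factors, and in that list 0 of 6 passed, 0 were higher and 2 lower at an unadjusted p, all 6 differences were negative and the median was −0.11. Foxo3, a quiescence transcription factor gene, averaged 5.42 and 5.76 (difference −0.34 ± 0.091, limma's adjusted p = 0.178), and Gsk3b averaged 9.62 and 9.72.

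Survival genes outside the family gave 0 calls as well. Of 13 BCL2 family genes 0 passed and at an unadjusted p 1 was higher and 1 lower, with a median of −0.0097. Bbc3 and Pmaip1, which encode the death inducers PUMA and NOXA, differed by −0.33 ± 0.078 and 0.25 ± 0.081 (limma's adjusted p = 0.146 and 0.248). Of 7 genes of IL-7 and IL-2 signalling 0 passed and 5 were negative; at an unadjusted p 1 was higher and 3 were lower. Past the adjusted threshold, 2 of them, Jak1 and Jak3, were lower with a prior variance that follows intensity and among the brighter genes. Jak1, a kinase of these receptors, was at 10.33, 10.38 and 10.44 in the knockout-labelled arrays, against 10.75, 10.75 and 10.78 in controls (difference −0.37 ± 0.057, limma's adjusted p = 0.0647; 0.00919 with that prior and 0.0190 among the brighter genes). Jak3, its partner kinase gene, averaged 8.10 in the knockout-labelled arrays and 8.55 in controls (difference −0.45, limma's adjusted p = 0.0949; 0.0409 and 0.0330 in those 2 fits). With any 1 array left out, limma's adjusted p was 0.141 to 0.211 for Jak1 and 0.169 to 0.248 for Jak3. Under the replicate block it was 0.208 and 0.198. Il2ra, the IL-2 receptor alpha gene, differed by 0.19 ± 0.059 (limma's adjusted p = 0.232).

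Quiescence and recirculation genes, which resting lymphocytes express beside GIMAP genes, had 0 of 13 past the threshold; at an unadjusted p 3 were higher and 1 was lower. Slfn2, a quiescence gene, was at 6.57, 6.57 and 6.58 in the knockout-labelled arrays, against 6.20, 6.26 and 6.19 in controls (difference 0.35 ± 0.053, limma's adjusted p = 0.0611; 0.0222 with that intensity-following prior and 0.0182 among the brighter genes). For Slfn2, limma's adjusted p was 0.141 to 0.197 with any 1 array left out and 0.214 under the replicate block. Foxp1 differed by −0.29 ± 0.10 (limma's adjusted p = 0.265). Of 10 Notch pathway genes, a pathway active in early lymphocytes, 0 passed and at an unadjusted p 0 were higher and 2 lower, with Notch1 at 0.11 ± 0.061 and Maml1, a Notch coactivator gene, at −0.31 ± 0.10 (limma's adjusted p = 0.449 and 0.248).

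Among interferon-inducible immune GTPases of the IRG and GBP families, 1 of 16 measured genes was higher and 0 lower at an adjusted p under 0.05 in limma. Over all genes these shares were 0.254% and 0.198%. Gbp2, a guanylate-binding protein gene, was at 6.42, 6.10 and 6.26 in the knockout-labelled arrays, against 5.38, 5.42 and 5.07 in controls. The groups were far apart, with a difference of 0.97 ± 0.12 (limma's adjusted p = 0.0405); with any 1 of the 6 arrays left out the adjusted p was 0.119 to 0.171, and under the replicate block it was 0.138. Irgm2, an IRG gene, differed by −0.24 ± 0.066 (limma's adjusted p = 0.190). The median of this list was 0.20, beside −0.10 for the GIMAP genes and 0.0077 for all genes. At an unadjusted p under 0.05, 7 of these genes were higher and 1 lower, beside 6.97% and 7.91% of all genes. GBP genes include near-identical copies, so their values are uncertain where probe sets share sequence.

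**Figure D4:**
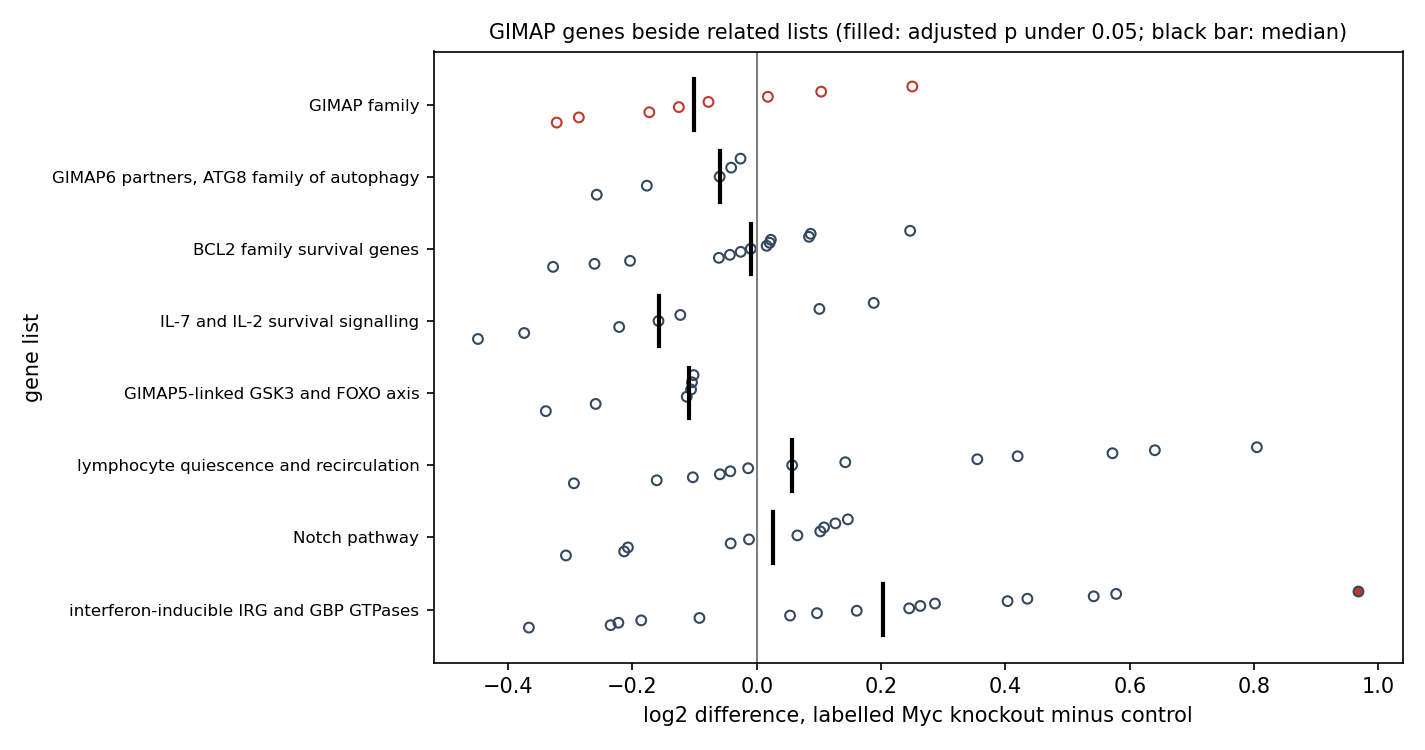
Log2 difference, knockout-labelled arrays minus control, of each measured gene in the GIMAP family and 7 related lists; filled points have an adjusted p under 0.05 and black bars are list medians. The GIMAP genes lie between −0.32 and 0.25 with a median of −0.10, and the single filled point is Gbp2 at 0.97.

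GIMAP genes are expressed in T, B and NK cells and some in endothelial cells, so markers of other cell types were measured beside them. Of 13 T cell markers, 8 averaged above the array medians, and 0 passed limma's adjusted test (0 higher and 2 lower at an unadjusted p). Of the CD3 chain genes, Cd3d and Cd3e averaged 2.68 and 1.98 in the knockout-labelled arrays and 2.58 and 2.15 in controls, below the array medians, whereas Cd3g averaged 5.04 and 5.47, without overlap of the groups. Also above the medians were Trbc2, a T cell receptor constant region gene, at 7.56 and 7.33, and the receptor signalling genes Zap70 at 6.52 and 6.69 and Lat at 5.29 and 5.47. For the T cell markers the log2 of the summed linear level ranged from 8.78 to 8.97 in the knockout-labelled arrays and from 8.77 to 8.89 in controls. Of 7 B cell markers 1 was above the medians, with Cd79a at 1.96 and 1.92 and sums of 5.12 to 5.26 and 5.18 to 5.28. For 7 NK cell and ILC1 markers, 2 were above the medians and the sums were 8.29 to 8.43 in the knockout-labelled arrays and 8.12 to 8.28 in controls. For 8 myeloid markers, 3 were above the medians and the sums were 7.17 to 7.31 and 7.48 to 7.63. Of 7 endothelial markers only Pecam1, which many leukocytes also express, was above the medians, with sums of 9.67 to 9.74 and 9.43 to 9.49. The groups did not overlap in the NK cell (narrowly), myeloid and endothelial sums, and the part of these shifts in the GIMAP values was not tested. Brighter genes weigh most in such a sum, so it can follow 1 or 2 genes. In knockout-labelled arrays and controls, Pecam1 averaged 9.65 and 9.41, and Itgam, the brightest myeloid marker, 5.99 and 6.61. The brightest NK cell and ILC1 markers were Prf1 (7.49 and 7.40) and Gzma (6.85 and 6.52). No marker of these lists passed limma's adjusted test.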

How the data were processed

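Total RNA of 6 samples was measured on Affymetrix arrays. The deposited values are on a log2 scale, and RMA and limma 3.14.4 are named in the submitters' processing notes. RMA subtracts background, equalises the distributions of the arrays and summarises each probe set, which removes any shift common to all transcripts. Array version, probe set definition and genome build: not given in the sources used here. The number of arrays limits the precision. Groups came from the sample titles.

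The table held 25206 probe sets, of which 23185 had 1 gene symbol in the platform annotation, 0 several and 2021 none. Differences were fitted over the 23185 with limma 3.58.1 in R 4.3.3 (lmFit, eBayes, no covariate) and adjusted by Benjamini-Hochberg, two-sided, at 0.05. In simulated data of 3 against 3 arrays this procedure recovered 37.4% of log2 changes of 0.5 and 84.0% of those of 1. Changes as small as those of the GIMAP genes, −0.32 to 0.25, were not simulated. Brighter genes are those at or above the median of the mean level. Promoter windows came from RefSeq for GRCm38.p6, and neighbours from its gene order. Figures used matplotlib 3.10.9.

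The members, lists and alternatives were chosen with earlier results of these data known. Genes named were all members, Myc, the 2 nearest measured genes on either side, of each list the gene with the smallest p in each direction, and the 3 genes nearest in pattern to the brightest, the dimmest and the most different member (Gimap6, and Gimap8 on the last 2 counts). Other list genes and all marker genes named were chosen after their values were seen. Of 79 list entries 70 and of 60 marker entries 55 were measured. Il1rl1 and Areg are not analysed here.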

Additional observations from a re-analysis of the deposited data

How the results depend on the processing

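Every GIMAP gene was recomputed under 15 alternatives. The sign held in all of them for 7 members, with Gimap8 between −0.37 and −0.27 and an adjusted p in limma of 0.0480 to 0.294; the sign of Gimap6 alone changed, to −0.0073 under median centring and −0.024 without control replicate 1, within −0.024 to 0.063 when 1 array was left out. The family median stayed between −0.13 and −0.064. Signs and this median could move only under array weights, median centring, cyclic loess or with 1 array left out. The other alternatives leave each difference unchanged, so they could not test its sign. Past the threshold, 0 members were higher under every alternative, and 1, Gimap8, was lower only in the fit on brighter genes, where fewer genes were tested. The number of members at an unadjusted p under 0.05 was 1 in the reported fit, where 14.9% of genes tested had such a p; it was 4 (Gimap3, Gimap7, Gimap8, Gimap9) with an intensity-trended prior variance (16.1% of genes), with array weights (15.0%) and among the brighter genes (24.0%), 3 under median centring (Gimap7, Gimap8, Gimap9; 14.7%) and without knockout-labelled replicate 2 (Gimap3, Gimap4, Gimap8; 13.7%), and 2 under cyclic loess (14.2%) and the replicate block (13.1%; Gimap3, Gimap8) and without control replicate 1 (Gimap8, Gimap9; 11.99%). The related genes and Myc were recomputed after the data were seen. Myc differed by 0.36 with limma's adjusted p = 0.127 in the reported fit. Over the 15 alternatives that p was 0.0487 to 0.307, under the threshold only among the brighter genes. AI854703 differed by −0.013 with array weights, −0.0025 under median centring, −0.13 without knockout-labelled replicate 1 and −0.034 without control replicate 3. Its range was −0.13 to 0.11 when 1 array was left out. The IRG and GBP list had 3 genes higher with the intensity trend and among the brighter genes, 2 with array weights or median centring, and 0 with any 1 array left out; the IL-7 and IL-2 list had 2 lower with the intensity trend and among the brighter genes. Over all genes, 59 were higher and 46 lower, against 162 and 208 with the intensity trend, 204 and 345 among the brighter genes, and 0 to 2 and 0 to 1 with 1 array left out. With the replicate number as a block these counts were 0 and 0 and the IRG and GBP count was 0; same-numbered arrays did not deviate together (r = −0.070, −0.012 and −0.017), so the numbers were not taken as pairs. The cause of these changes was not tested.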
